A study of Mus musculus with 2 samples.

Results

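Enzymes that break down threonine and glycine, make serine and move one-carbon units on folate were compared between the PB-Gbx2 library and the PB library of mouse embryonic stem cells. The set held 10 genes taken by their place in the pathway, with earlier results of these data known. All 10 were among the 14500 gene symbols of the deposited table. They were Tdh, Gcat and Gldc for threonine and glycine breakdown and Phgdh, Psat1 and Psph for serine synthesis. The folate reactions had Shmt1, Shmt2, Mthfd2 and Mthfd1l. The cells were of the 46C line, in which green fluorescent protein is inserted at the Sox1 locus, at passages 21 to 24 in both groups. They grew on gelatin in a medium with serum and LIF, carrying either a vector for the homeobox factor Gbx2 (PB-Gbx2) or the empty vector (PB). Each group had 1 library, so no value has a replicate error and no difference could be tested. Whether the transfected cells were a pool or a clone is not given in the labels.

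The sample titles contradict the source fields, which assign Gbx2 overexpression to the library titled PB and the empty vector to the one titled PB-Gbx2. The titles were followed, since they match the table's column names. Gbx2 had a level of 1178 in the PB-Gbx2 library and 345 in the PB library, which fits the titles, although reads of the vector and of the endogenous gene are not separated. With the source fields in place of the titles, each direction below would be the opposite. Levels are normalized values that the authors rounded to whole numbers, with one shared distribution in both libraries, and the depth behind them is unknown. The embryonic stem cell label was matched by its markers: all 10 had rows, with a summed level of 145272 in the PB-Gbx2 library and 106580 in the PB library. Of these, 8 were higher and 1 lower in PB-Gbx2, with Nanog, Klf4, Zfp42 and Tbx3 past 2-fold. Over all genes, 49.2% were higher and 5.14% at least 2-fold higher. Of the other markers, 3 of 6 for fibroblast feeders summed to 546 in PB-Gbx2 and 1007 in PB, 3 of 6 for endoderm to 169 in PB-Gbx2 and 102 in PB, 3 of 5 for trophectoderm to 444 in PB-Gbx2 and 703 in PB, and 3 of 4 for neural cells to 1545 in PB-Gbx2 and 1663 in PB. Of the neural markers, Tubb3 was lower (756 in PB-Gbx2 and 1248 in PB) and made up most of the sum in PB. Sox1 (56 in PB-Gbx2 and 10 in PB) and Nes (733 in PB-Gbx2 and 405 in PB) were higher. Of the 3 measured in each of the other lists, 1 was higher for fibroblast feeders, 3 for endoderm and 1 for trophectoderm. Dcn, Lum, Postn, Sox17, Foxa2, Afp, Cdx2, Elf5 and Pax6 had no row and were not analysed here. The part of these cells in the values below was not tested. In bulk RNA, fewer cells of a type and less RNA per cell cannot be told apart.

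Threonine dehydrogenase (Tdh) oxidises threonine in mitochondria, and glycine C-acetyltransferase (Gcat) splits the product into glycine and acetyl-CoA. The glycine cleavage system then passes a carbon of glycine to tetrahydrofolate, and mouse embryonic stem cells are known for high Tdh and for their need of threonine. Serine, made from a glycolytic intermediate by Phgdh, Psat1 and Psph, is the other main source: the hydroxymethyltransferases Shmt1 (cytosol) and Shmt2 (mitochondria) turn it into glycine and load folate, whose units feed purine and thymidylate synthesis.

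Promoter sequences were found for 9 of the 10 enzymes in RefSeq tables of build GRCm38.p6. Tdh had none there, so its promoter was not searched. Each window is 300 bases long, with 250 before the annotated start and 50 after it. Psat1 has 2 annotated starts, which gives 10 windows in all, and the one shown holds the marked motif while the other, chr19:15924573-15924872, holds none of those searched. Shown here are Psat1 and Mthfd2, the enzymes with the lowest ratios of the serine and folate groups, Phgdh, which opens serine synthesis, and Gcat, whose ratio was nearest to 0 among the enzymes that were lower. Capitals mark CCAAT, the letters bound by the factor NF-Y (ATTGG on the opposite strand), and CACGTG, the E-box read by MYC and related factors.
Psat1, chr19:15925010-15925309, minus strand: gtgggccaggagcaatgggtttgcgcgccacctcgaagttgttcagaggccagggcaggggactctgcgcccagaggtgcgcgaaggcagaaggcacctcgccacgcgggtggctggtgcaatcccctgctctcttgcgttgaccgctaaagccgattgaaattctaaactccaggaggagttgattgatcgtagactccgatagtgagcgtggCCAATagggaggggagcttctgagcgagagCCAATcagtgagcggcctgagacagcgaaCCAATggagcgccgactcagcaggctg
Mthfd2, chr6:83317555-83317854, minus strand: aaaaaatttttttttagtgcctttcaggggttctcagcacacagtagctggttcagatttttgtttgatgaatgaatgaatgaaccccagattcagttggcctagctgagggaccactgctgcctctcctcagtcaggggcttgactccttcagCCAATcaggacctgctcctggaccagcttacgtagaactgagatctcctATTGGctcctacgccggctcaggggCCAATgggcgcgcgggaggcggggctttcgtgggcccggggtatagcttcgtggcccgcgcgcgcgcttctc
Phgdh, chr3:98339920-98340219, minus strand: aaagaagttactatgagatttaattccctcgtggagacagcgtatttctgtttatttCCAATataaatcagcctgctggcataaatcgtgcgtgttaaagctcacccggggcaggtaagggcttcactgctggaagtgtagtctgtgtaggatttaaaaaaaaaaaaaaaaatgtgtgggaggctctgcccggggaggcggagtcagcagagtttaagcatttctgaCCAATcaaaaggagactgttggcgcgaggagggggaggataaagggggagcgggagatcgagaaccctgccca
Gcat, chr15:79030624-79030923, plus strand: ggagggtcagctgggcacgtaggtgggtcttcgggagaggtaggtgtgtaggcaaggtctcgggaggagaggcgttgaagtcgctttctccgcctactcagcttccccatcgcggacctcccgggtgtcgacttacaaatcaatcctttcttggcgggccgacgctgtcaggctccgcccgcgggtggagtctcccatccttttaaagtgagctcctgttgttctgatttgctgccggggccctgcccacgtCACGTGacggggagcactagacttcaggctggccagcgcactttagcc

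Searched on both strands, CACGTG was in 1 of the 10 windows, that of Gcat, against 7.15% of all 32851 promoter windows. TGATGNAA, the core of the amino acid response element bound by ATF4 with C/EBP partners, was in none of the 10 (3.97% of all windows), and neither was the homeobox core TAATTA (5.29%). CCAAT was added after the promoters had been read. It occurred in 6 of the 10 windows, those of Gldc, Phgdh, Psph, Shmt1 and Mthfd2 and the printed one of Psat1, against 37.4% of all windows. The printed windows of Psat1 and Mthfd2 each held it 3 times, a number reached or passed by 3.37% of all windows. The motifs do not overlap one another in these windows, and letters alone do not show that a factor binds.

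Tdh stood apart from the rest of the set. Its level was 4759 in the PB-Gbx2 library and 2692 in the PB library, 1.77-fold higher in PB-Gbx2. When all genes were split by mean level into 20 bins, 11 of the 725 genes in the bin of Tdh (mean levels of 2528 to 4190), Tdh included, had a ratio as high. Gcat, the next enzyme of the threonine route, did not share this difference, with 1506 in the PB-Gbx2 library and 1770 in the PB library (1.18-fold lower). Tdh was thus 3.16 times the level of Gcat in the PB-Gbx2 library and 1.52 times in the PB library. Gldc, the glycine decarboxylase of the cleavage system, went the opposite way to Tdh, at 3144 in the PB-Gbx2 library and 5416 in the PB library (1.72-fold lower). Tdh was 1.51 times Gldc in the PB-Gbx2 library and 0.497 times Gldc in the PB library. Ratios between 2 enzymes within a library, here and below, use levels not divided by transcript length. The longest transcript has 1881 bases for Tdh and 3767 for Gldc. Per kilobase, Tdh and Gldc were at 2530.0 and 834.6 in the PB-Gbx2 library, and at 1431 and 1438 in the PB library. The mean log2 ratio of the 3 genes was -0.07, with members at 0.82, -0.23 and -0.78.

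The partners of Gldc in the cleavage system did not follow it. Amt, the aminomethyltransferase that hands the carbon to folate, had 1972 in the PB-Gbx2 library and 1782 in the PB library. Gcsh, the lipoyl carrier protein, had 1988 in the PB-Gbx2 library and 2088 in the PB library. With Dld, the dehydrogenase shared with other complexes, none of the 3 partners was 1.5-fold higher or lower, and their median log2 ratio was -0.06. Over all genes, 11.6% were 1.5-fold higher and 12.2% lower.

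All 3 enzymes of serine synthesis were lower in the PB-Gbx2 library. Phgdh, the dehydrogenase that draws 3-phosphoglycerate out of glycolysis, had 1977 in the PB-Gbx2 library and 3102 in the PB library (1.57-fold lower). Psat1, the aminotransferase of the second step, had 2966 in the PB-Gbx2 library and 5816 in the PB library (1.96-fold lower). Its ratio was the lowest of the set, and 7 of the 725 genes in its bin, the highest one with mean levels from 4195 to 70328, were as low, itself included. Psph, the phosphatase that releases serine, had 724 in the PB-Gbx2 library and 1183 in the PB library (1.63-fold lower). The mean log2 ratio of the route was -0.78, with members between -0.97 and -0.65. Tdh was 1.60 times Psat1 in the PB-Gbx2 library and 0.463 times Psat1 in the PB library. Against Phgdh, Tdh was 2.41 times in the PB-Gbx2 library and 0.868 times in the PB library. Per kilobase of the longest transcript, Tdh and Psat1 were at 2530.0 and 1133 in the PB-Gbx2 library, and at 1431 and 2222 in the PB library.

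**Figure D1:**
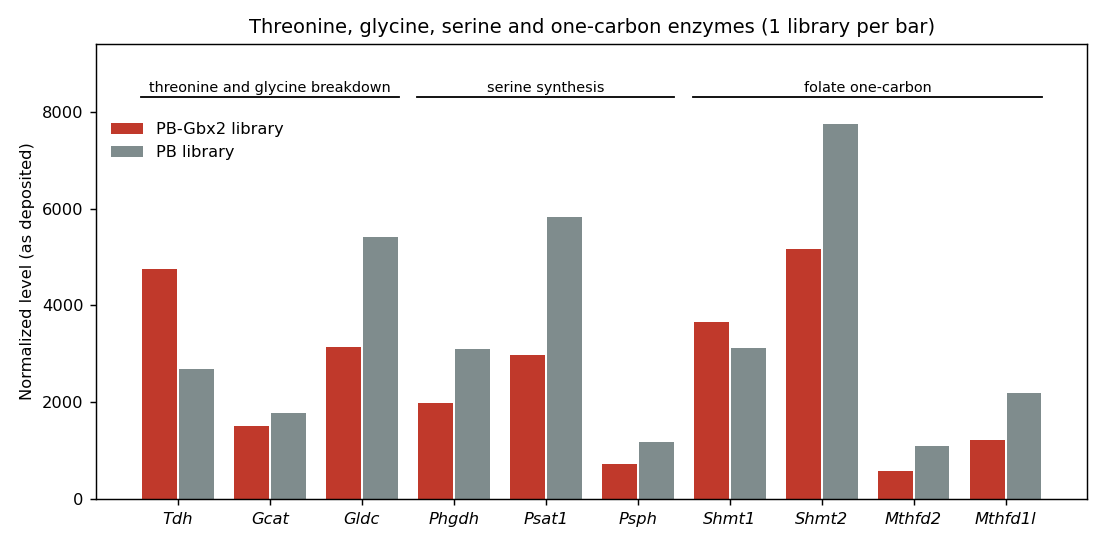
Normalized level (vertical axis, as deposited) of the 10 enzymes, grouped by pathway, in the PB-Gbx2 library (red, left bar) and the PB library (grey, right bar), 1 library per bar and no error. Tdh and Shmt1 have the taller bar in PB-Gbx2, and the other 8 enzymes in PB.

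Of the 4 folate enzymes, the 3 mitochondrial ones were lower and the cytosolic one was not. Shmt2 had 5154 in the PB-Gbx2 library and 7752 in the PB library, a ratio just past 1.5-fold on the lower side. Its cytosolic counterpart Shmt1 had 3656 in the PB-Gbx2 library and 3116 in the PB library, 1.17-fold higher, and 126 of the 725 genes in its bin, Shmt1 included, were as high. The 2 hydroxymethyltransferases lay closer together in PB-Gbx2, where Shmt2 was 1.41 times Shmt1, against 2.49 times in PB. Mthfd2, the mitochondrial methylenetetrahydrofolate dehydrogenase and cyclohydrolase, had 586 in the PB-Gbx2 library and 1092 in the PB library (1.86-fold lower). Mthfd1l, which releases formate from the folate in mitochondria, had 1222 in the PB-Gbx2 library and 2192 in the PB library (1.79-fold lower). These 2 kept nearly the same proportion, with Mthfd2 at 0.480 times Mthfd1l in the PB-Gbx2 library and 0.498 times in the PB library.

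As a set, 2 enzymes were higher and 8 lower in the PB-Gbx2 library, and the median log2 ratio was -0.68, against 0.00 over all genes. At all sizes of difference, 49.2% of the 14500 genes were higher and 48.9% lower. None of the 10 reached 2-fold in either direction, a size reached upward by 5.14% of all genes and downward by 5.26%. At 1.5-fold, 1 enzyme (Tdh) was higher, where 11.6% of all genes were, and 7 were lower, where 12.2% of all genes were. These 7 were Gldc, Phgdh, Psat1, Psph, Shmt2, Mthfd2 and Mthfd1l. Shmt2 lay at the border of that count. The same 7 were below the 5th percentile of the genes in their own twentieth of mean level, and Tdh was above the 95th. Within those twentieths the SD of the log2 ratio was 0.31 to 0.36, a spread between genes and not between cultures.

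**Figure D2:**
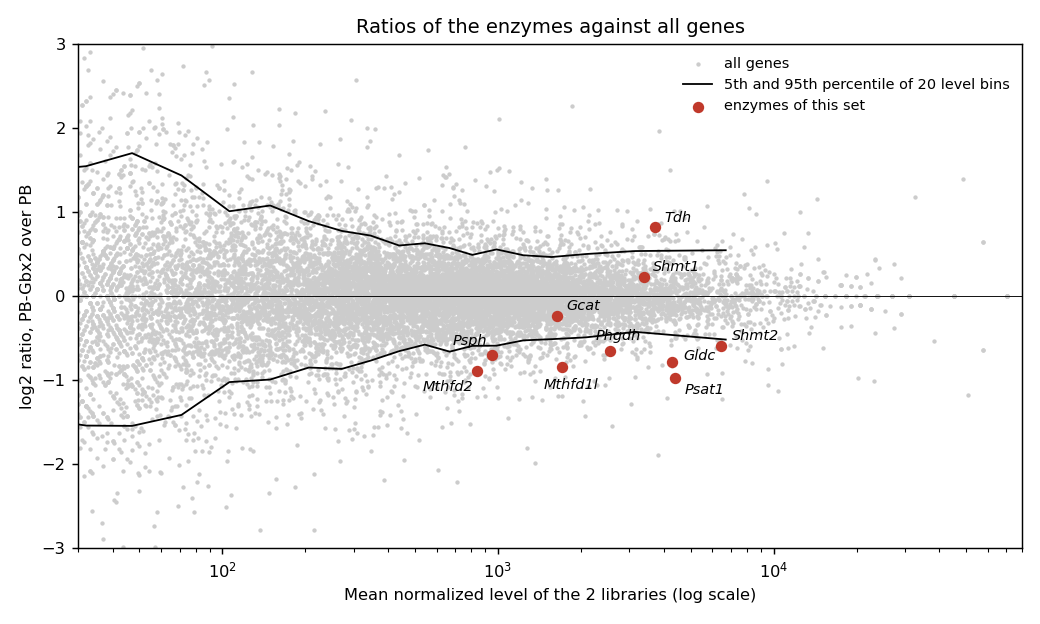
Log2 ratio of PB-Gbx2 over PB (vertical axis) against the mean normalized level of both libraries (horizontal axis, log scale) for all genes (grey points) and the 10 enzymes (red points, named), with the 5th and 95th percentiles of 20 level bins as black lines. Genes beyond 3 on either side or at the lowest levels lie outside the frame. Tdh lies above the upper line at 0.82, Gcat and Shmt1 lie between the lines, and the other 7 lie below the lower line.

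In the authors' deposited table, 6 of the 10 enzymes have an unadjusted p under 0.05, compared with 3.74% of its 14501 rows. They are Psat1, at 0.00215 in the authors' deposited table, Tdh at 0.0101, Gldc at 0.0131, Mthfd1l at 0.0153, Mthfd2 at 0.0233 and Phgdh at 0.0489. None has an adjusted p under 0.05 in the authors' deposited table, where the smallest is 0.262 for Psat1. How those p-values were obtained from 1 library per group is not given in the sources used here.

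Per kilobase of the longest transcript, the order of the enzymes differed between the libraries. Tdh ranked 1 of 10 in the PB-Gbx2 library, with a level of 2530.0 per kilobase, and 5 in the PB library, with 1431. Shmt2 ranked 2 in the PB-Gbx2 library (2252 per kilobase) and 1 in the PB library (3387). Psat1 ranked 4 in the PB-Gbx2 library (1133 per kilobase) and 2 in the PB library (2222). In PB, Tdh and Gldc were neighbours, at 1431 and 1438 per kilobase. The lower end was the same in both libraries, with Mthfd2 last at 281 per kilobase in the PB-Gbx2 library and 524 in the PB library, next to Mthfd1l at 331 in the PB-Gbx2 library and 595 in the PB library. No spread over cultures is available to say which neighbours differ.

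The folate cycle outside the set was mixed. Of 12 listed enzymes, 11 had rows, 5 of them higher and 6 lower in the PB-Gbx2 library, and the median log2 ratio was -0.05. Aldh1l2, which oxidises formyl-tetrahydrofolate in mitochondria, was the one past 2-fold, with 203 in the PB-Gbx2 library and 542 in the PB library (2.67-fold lower). Its cytosolic relative Aldh1l1 had 560 in the PB-Gbx2 library and 484 in the PB library (1.16-fold higher). Mthfd1, the trifunctional cytosolic enzyme, had 7954 in the PB-Gbx2 library and 6652 in the PB library (1.20-fold higher). Mthfd2l, the mitochondrial relative of Mthfd2, was low in both, at 38 in the PB-Gbx2 library and 62 in the PB library. Aldh1l1, Mthfd1 and Mthfd2l were picked after their values were seen.

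Split by compartment, a grouping also made after the values were seen, the 5 mitochondrial enzymes Shmt2, Mthfd2, Mthfd2l, Mthfd1l and Aldh1l2 were all lower in PB-Gbx2, with log2 ratios of -1.41 to -0.59. The 3 cytosolic enzymes Shmt1, Mthfd1 and Aldh1l1 were all higher, with log2 ratios of 0.21 to 0.26. Summed levels were 7203 in the PB-Gbx2 library and 11640 in the PB library for the mitochondrial enzymes, and 12170 in the PB-Gbx2 library and 10252 in the PB library for the cytosolic ones. The cytosolic differences were each under 1.5-fold. The split did not extend to the whole set: the mitochondrial Tdh was higher, and the cytosolic Phgdh, Psat1 and Psph were lower. By compartment, 5 of the 6 mitochondrial and 3 of the 4 cytosolic enzymes of the set were lower.

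**Figure D3:**
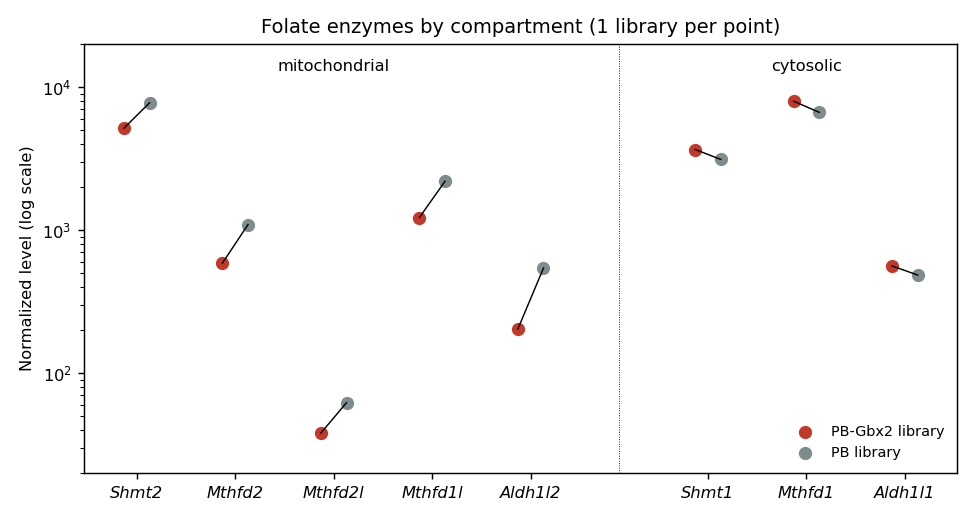
Normalized level (vertical axis, log scale) of 5 mitochondrial and 3 cytosolic folate enzymes in the PB-Gbx2 library (red, left point of each pair) and the PB library (grey, right point), 1 library per point. The line within each pair slopes up towards PB for every mitochondrial enzyme and down for every cytosolic one.

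Consumers of the one-carbon units differed little. None of the 6 listed enzymes of purine synthesis was 1.5-fold higher or lower, where 11.6% of all genes were higher and 12.2% lower. The median log2 ratio of the 6 was 0.01. The 2 with the greatest difference were Atic, which uses formyl-tetrahydrofolate, at 2411 in the PB-Gbx2 library and 2742 in the PB library, and Adsl at 1452 in the PB-Gbx2 library and 1600 in the PB library. The 4 folate transport genes were all slightly higher, with a median log2 ratio of 0.09. Among them the mitochondrial folate carrier Slc25a32 had 218 in the PB-Gbx2 library and 191 in the PB library, and the folate receptor Folr1 had 285 in the PB-Gbx2 library and 263 in the PB library.

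Methionine cycle and methyl transfer genes had 9 of 10 members with rows and a median log2 ratio of 0.32. Past 2-fold lay 2 on the higher side and 1 on the lower side, beside 5.14% and 5.26% of all genes. Bhmt, which remethylates homocysteine from betaine, had 572 in the PB-Gbx2 library and 28 in the PB library, and Dmgdh, which takes the next methyl group to folate, had 508 in the PB-Gbx2 library and 45 in the PB library. Gnmt, which methylates glycine, had 86 in the PB-Gbx2 library and 182 in the PB library (2.12-fold lower). Mat2a, the methionine adenosyltransferase, had 5159 in the PB-Gbx2 library and 3282 in the PB library (1.57-fold higher) and was picked after its values were seen.

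Other enzymes that use serine, glycine or threonine had 6 of 9 members with rows and a median log2 ratio of -0.21. Glyctk, the glycerate kinase, alone reached 2-fold, on levels of 45 in the PB-Gbx2 library and 22 in the PB library. Among 11 carriers of these amino acids, 3 were higher and 8 lower, with a median log2 ratio of -0.21. Slc1a4, which carries serine, alanine and threonine, had 338 in the PB-Gbx2 library and 743 in the PB library (2.20-fold lower). The other 3 carriers past 1.5-fold were picked after their values were seen. The neutral amino acid exchanger Slc1a5 had 1710 in the PB-Gbx2 library and 2618 in the PB library (1.53-fold lower). The sodium-coupled Slc38a2 had 5549 in the PB-Gbx2 library and 3321 in the PB library (1.67-fold higher). The mitochondrial glycine carrier Slc25a38 had 635 in the PB-Gbx2 library and 414 in the PB library (1.53-fold higher).

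Over all 7 related lists, 50 of 55 genes had rows. Of these 23 were higher and 26 lower in the PB-Gbx2 library, and the median log2 ratio was -0.03. Past 2-fold lay 3 in each direction, near the shares over all genes (5.14% higher and 5.26% lower). Known regulators of this pathway differed little in RNA. Atf4, the transcription factor of the amino acid response, had 5218 in the PB-Gbx2 library and 5692 in the PB library (1.09-fold lower). Myc had 654 in the PB-Gbx2 library and 674 in the PB library (1.03-fold lower). Protein and activity of these factors were not measured, and their part in the ratios above was not tested.

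**Figure D4:**
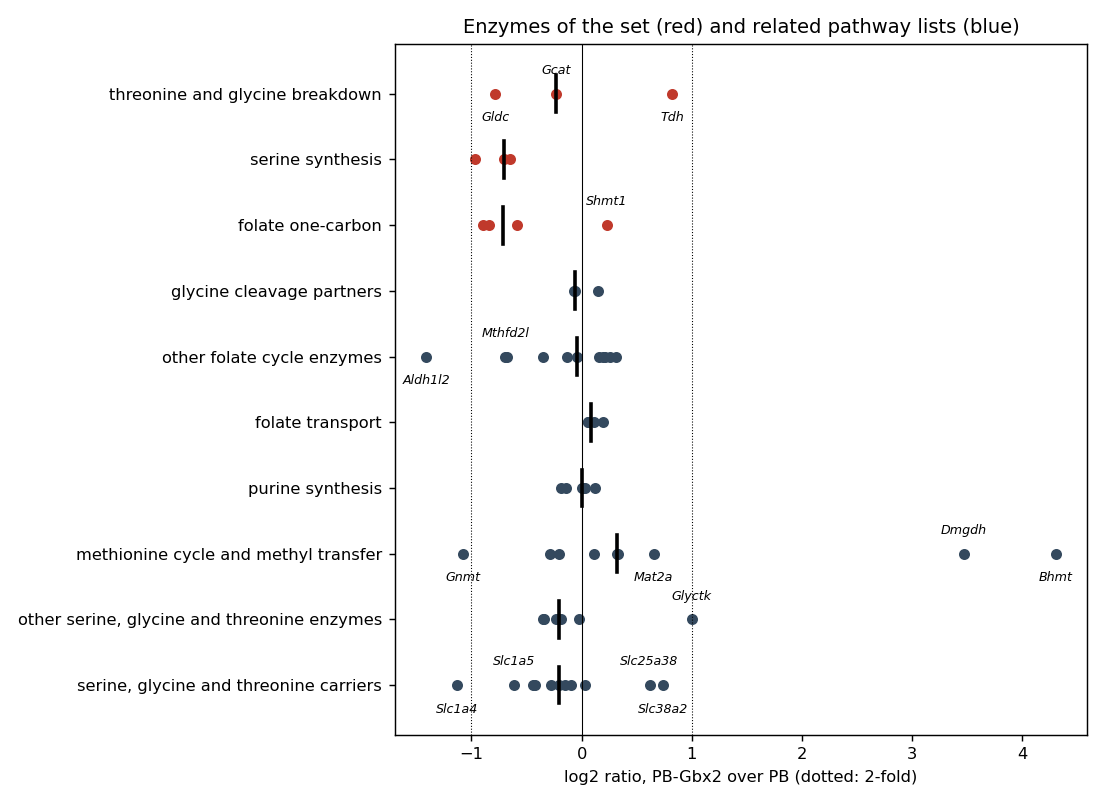
Log2 ratio of PB-Gbx2 over PB (horizontal axis) for each gene (points) of the 3 groups of the set (red) and 7 related lists (blue), with the median of each group as a black bar and 2-fold as dotted lines. All 3 serine synthesis genes lie left of 0, with a median of -0.71, while purine synthesis and folate transport lie near 0, and Bhmt and Dmgdh lie far to the right.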

How the data were processed

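Total RNA of 1 library per group was sequenced after TruSeq library preparation, per the labels' protocols. STAR and build mm9 are named per the submitters' processing notes; versions, annotation and counter were not given in the sources used here. Each deposited level is a score, a whole number the authors normalized, with identical sorted values in both libraries, so depth is unknown and no counting interval was given. The authors' deposited ratio and its log2 run PB over PB-Gbx2, and the authors' p-values are quoted as theirs.

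Log2 ratios were computed as PB-Gbx2 over PB after adding a pseudocount of 1, and fold differences are ratios of levels. A gene was called at a log2 ratio of 1 or -1 provided that one library reached a level of 1. With no replicate, no test between the groups was run. The 2 rows sharing a date-like symbol were summed, leaving 14500 symbols from 14501 rows. Genes were ranked within 20 bins of mean level. Transcript lengths came from GENCODE M21 and promoters from RefSeq (GRCm38.p6); no coordinate of the deposited table was used. The members and lists were chosen with earlier results of these data known. Named genes were all members, Gbx2, Atf4, Myc and, from each related list, those past 2-fold or otherwise the 2 with the largest absolute ratio; others are marked as picked later, and 1 gene that was in a related list is counted there but not reported here. The ratio calculation was checked on simulated levels with known shifts. Alternatives changed the pseudocount, minimum level, scaling, centring and fold threshold. Python 3.11.15, numpy 2.4.6, pandas 2.3.3 and matplotlib 3.10.9 were used.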

Additional observations from a re-analysis of the deposited data

How the results depend on the processing

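At a 1.5-fold threshold, 1 enzyme was higher and 7 were lower, against 0 and 0 at 2-fold. The other 7 alternatives were a pseudocount of 0.1 or 5, no minimum level or one of 100, rescaling to equal medians or by a mean trimmed by 30 percent from each side, and centring on the median of each level bin. Under these, no log2 ratio of an enzyme, group mean or median moved by more than 0.019 and none turned direction. Since both libraries share one distribution and no enzyme has a level under 586, these settings say little about stability. No paired analysis was possible because there is a single library on each side, which also prevents leaving one out. With depth unknown and no second culture, the spread between cultures and the counting error of every ratio cannot be given.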
